A study of Homo sapiens with 12 samples.

Results

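EVI1-transduced and empty-vector U937 cells were compared under solvent, without retinoic acid, across all genes that the array annotation names. The comparison takes 6 of the 12 samples of the series, 3 for each kind of cell. U937 is an established human line, derived from a histiocytic lymphoma and widely used as a model of immature monocytes. The first group, vector under DMSO, holds cells transduced with the empty vector. The second, EVI1 under DMSO, holds cells transduced with a vector that expresses EVI1. Both were grown in RPMI medium with serum and given DMSO, the solvent of all-trans retinoic acid (ATRA), for 24 h. The other 6 samples are the same pair of cell lines treated for 24 h with 1 µM ATRA, and they serve here as a second pair of groups in which EVI1 can be set against vector. They also enter the choice of probe sets, the signal limit and the spread estimated in the main test. Each group has 3 biological replicates, numbered 1 to 3 in the labels. Whether each transduced line was a single clone or a mixed population, and which promoter drove EVI1, is not given in the sources used here, and each vector is represented by 1 cell line.

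EVI1 is a zinc finger transcription factor made from the MECOM locus. It binds DNA through separate zinc finger domains, recruits CtBP co-repressors and histone-modifying enzymes, and interferes with SMAD3, a transducer of TGF-beta signals. It is needed by blood stem cells, and its overexpression marks an aggressive form of acute myeloid leukaemia. Retinoic acid receptors control genes of myeloid maturation, so the cells under solvent give the state in which the line meets the hormone.

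Levels were read on Affymetrix 3′ expression arrays and are given as log2 values, on which a difference of 1 is a 2-fold change. An array holds 54675 probe sets, groups of short probes that together read 1 transcript. The medians of the 6 DMSO arrays lay between 5.29 and 5.35, and within each DMSO group r between arrays was 0.989 to 0.994. Of 18 markers of myeloid identity named by the annotation, 17 had a mean of at least 5 in both groups. A mean of 8 was reached by 13 in vector and 12 in EVI1 cells. LYZ, the lysozyme gene, and ELANE, the neutrophil elastase gene, were among these. Lower in the same list, SPI1 read 6.07 to 6.88 and MPO, the myeloperoxidase gene, 4.80 to 5.80. The summed level of that marker list ranged from 167 to 173 on the vector arrays and from 167 to 172 on the EVI1 arrays. No marker of erythroid, T and NK, B, epithelial, or fibroblast and endothelial cells had a mean of 8 in either group. Of 11 megakaryocyte markers 1 did in both. A mean of 5 in vector cells was reached by 8 of 11 erythroid, 8 of 11 megakaryocyte and 11 of 21 T and NK markers. It was also reached by 7 of 12 B cell, 5 of 12 epithelial, and 8 of 15 fibroblast and endothelial markers. In EVI1 cells these counts were the same but for 6 erythroid and 12 T and NK markers. The summed level of the 12 B cell markers was 60.97 to 61.83 on the vector arrays and 63.22 to 63.72 on the EVI1 arrays, with no overlap. The DMSO arrays numbered 3 differed from the others in DHRS3 and CD38, genes that respond to retinoids. The retinoid-responsive gene DHRS3 read 8.70 (vector) and 9.70 (EVI1) there, and no more than 6.30 on any other DMSO array. CD38, another gene that retinoic acid induces, likewise read 9.34 and 9.45 there, and at most 7.05 elsewhere under DMSO. Other genes that ATRA moved in vector cells were mixed. THBD, which ATRA raised, was highest on vector array 3 (8.27 against 6.05 and 6.55). GPR18, also raised, was not (6.87 against 6.89 and 6.54), but it was highest on EVI1 array 3 (8.33 against 8.20 and 7.94). ITGAM and CDKN1A, also raised, were highest on the array numbered 3 of each group. ITGAM read 6.36 (vector) and 6.93 (EVI1) there, and CDKN1A 8.08 and 9.72. HS3ST2, which ATRA lowered, was highest on vector array 3 (7.14 against 6.83 and 6.78). Among EVI1 arrays it was lowest on number 3 (8.68 against 8.87 and 8.99). NFE2L3 and TRIM71, also lowered, were not lowest on the array numbered 3 of either group. In a principal component analysis of the 6 DMSO arrays, EVI1 array 3 lay furthest out on the first component and EVI1 array 1 on the second.

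The transduced gene was looked at first. The 5 probe sets of MECOM read between 2.69 and 3.53 on all 6 DMSO arrays, below the lower quartile of each array, which lay between 3.83 and 3.91. The largest difference between EVI1 and vector cells was 0.10, and the smallest adjusted p was 0.998 in limma (0.763 with the replicate number as a block). The arrays therefore gave no check of the EVI1 label. Whether these probe sets read the introduced sequence is not given in the sources used here.

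Of 14080 genes tested with limma on all 12 arrays, 171 differed between EVI1 and vector cells at a Benjamini-Hochberg adjusted p under 0.05, which is 1.21% of them. This fit did not pair arrays by replicate number. Where neither the block nor another setting is named, the calls below are from it. Called genes were 75 higher in EVI1 cells (0.533%) and 96 lower (0.682%). The changes were larger downwards: 31 of the genes called lower fell at least 2-fold and 7 of them at least 4-fold, while 14 of those called higher rose at least 2-fold and 0 reached 4-fold. With the replicate number as a block, the median standard error (SE) was 0.096 in place of 0.145. Limma then called 1013 genes (7.19%), 592 higher (4.2%) and 421 lower (2.99%), and all 171 were among them. Fitted to the 6 DMSO arrays alone, it called 92 (0.653%; 0.249% higher and 0.405% lower), and with the block on those 6 arrays 734 (5.21%; 3.05% higher and 2.17% lower). The 3 EVI1 arrays did not overlap the 3 vector arrays for any of the 171. Over all tested genes, 8.23% lay wholly above and 6.35% wholly below the vector arrays. An unadjusted p under 0.05 was found for 1379 genes, where 704 are expected if no gene differs.

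**Figure D1:**
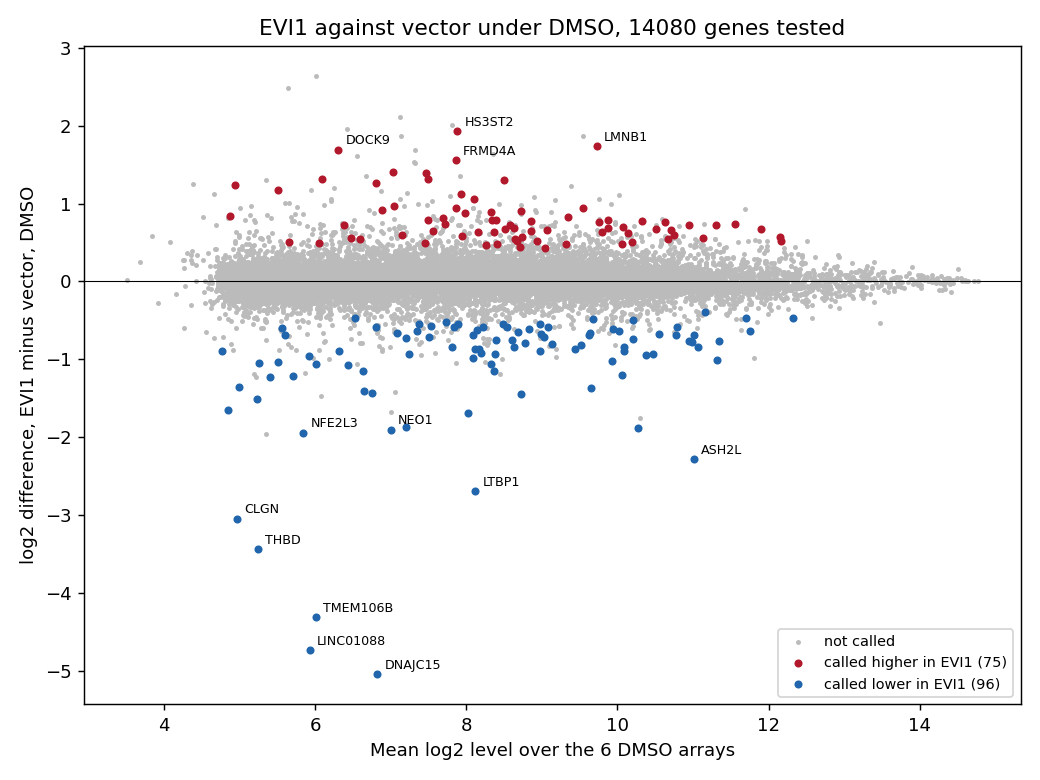
Log2 difference between EVI1 and vector cells under DMSO against the mean log2 level over the 6 DMSO arrays, 1 point a gene. Red points are the 75 genes called higher and blue points the 96 called lower by limma; 5 genes fall by more than 3, DNAJC15 furthest, at -5.05.

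Leaving out 1 DMSO array gave between 77 and 130 calls. The count fell by more than 1.5 times without vector array 1 (113), 2 (77) or 3 (95) and without EVI1 array 2 (87) or 3 (79).

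DNAJC15, which encodes a co-chaperone of the inner mitochondrial membrane, had the largest fall. It read 9.30, 9.34 and 9.40 on the vector arrays and 4.42, 3.93 and 4.55 on the EVI1 arrays, so the groups lay far apart and the EVI1 arrays were near the level of unexpressed genes. The fall was 5.05 (SE 0.18, limma adjusted p = 5.69e-08). Since the EVI1 arrays were under the signal limit of 5, its size depends on the background there, as it does for LINC01088, TMEM106B, THBD and CLGN. LINC01088, a long non-coding RNA, read 7.95, 8.06 and 8.88 in vector cells and 3.92, 3.04 and 3.71 in EVI1 cells, a difference of -4.74 (SE 0.33, adjusted p = 1.47e-05). TMEM106B, a lysosomal membrane protein, read 7.80, 8.21 and 8.50 against 4.50, 3.37 and 3.70, a difference of -4.31 (SE 0.34, adjusted p = 5.72e-05). In all 3 genes every vector array was at least 3 log2 units above every EVI1 array.

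THBD encodes thrombomodulin, a surface receptor of thrombin found on endothelial cells and monocytes. It read 6.05, 6.55 and 8.27 in vector cells and 3.51, 3.34 and 3.71 in EVI1 cells. The vector arrays were spread widely, with number 3 highest, while all EVI1 arrays lay below the lower quartile of the array. The difference was -3.44 (SE 0.43, adjusted p = 0.00227), and -2.78 without vector array 3 (adjusted p = 0.00028). CLGN, a chaperone of the endoplasmic reticulum best known from the testis, read 6.13, 6.58 and 6.78 against 3.38, 3.61 and 3.35. Its difference was -3.05 (SE 0.25, adjusted p = 6.71e-05), again with no overlap. These 5 genes, with KITLG, MTERF1, CLDN12, ZNF496 and ZCCHC18, were at or above 5 on all vector arrays and under 5 on all EVI1 arrays, a pattern met by 18 tested genes, 10 of them called. The reverse pattern was met by 8 tested genes, of which TDRP and TRIM58 were called. In bulk RNA, fewer cells with a transcript and less of it per cell cannot be told apart.

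LTBP1 stores latent TGF-beta in the extracellular matrix. It read 9.50, 9.39 and 9.51 in vector cells and 6.63, 6.93 and 6.76 in EVI1 cells, so it stayed well expressed at a level 6.47-fold lower (difference -2.69, SE 0.16, adjusted p = 7.77e-06). ASH2L, a core subunit of the complexes that methylate histone H3 at lysine 4, was among the strongest signals in vector cells, at 12.06, 12.26 and 12.14, and read 9.93, 9.90 and 9.78 in EVI1 cells. Its difference of -2.28 had the smallest error of the 12 largest falls (SE 0.10, adjusted p = 2.98e-07). The remaining 5 of these falls lay between -1.94 and -1.69. NFE2L3, a leucine zipper transcription factor, fell from 6.82 ± 0.35 to 4.87 ± 0.39 (SD, n = 3). NEO1, the receptor neogenin, fell from 7.95 ± 0.14 to 6.05 ± 0.34. STAR, which carries cholesterol to the inner mitochondrial membrane, was high in vector cells at 11.2 ± 0.22 and fell to 9.33 ± 0.02. RTL8C, a gene derived from a retrotransposon, fell from 8.13 ± 0.12 to 6.26 ± 0.21. Its probe set is of the type that can match similar transcripts, so its near-identical copies may share the signal. YOD1, a deubiquitinating enzyme, fell from 8.87 ± 0.02 to 7.18 ± 0.05. All 12 of these genes kept their call with every array or pair of arrays left out and in every other setting tried. The next gene outside the 12 was KITLG, the ligand of the KIT receptor, at -1.65.

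HS3ST2, an enzyme that adds 3-O-sulphate to heparan sulphate, had the largest rise. It read 6.83, 6.78 and 7.14 in vector cells and 8.87, 8.99 and 8.68 in EVI1 cells, a difference of 1.93, or 3.81-fold (SE 0.17, adjusted p = 0.000162). The spread within each group was small beside the gap. LMNB1 encodes lamin B1 of the nuclear lamina and read 9.35, 8.21 and 9.01 against 10.52, 10.69 and 10.57. The vector arrays varied and the EVI1 arrays did not (difference 1.74, SE 0.29, adjusted p = 0.0123). GPR18, a G-protein-coupled receptor of leukocytes, read 6.89, 6.54 and 6.87 against 8.20, 7.94 and 8.33, a difference of 1.39 (SE 0.15, adjusted p = 0.00098). CDKN1A, the cyclin-dependent kinase inhibitor p21, read 7.92, 7.56 and 8.08 against 8.75, 8.99 and 9.72, with the EVI1 array numbered 3 highest. Its difference was 1.30 (SE 0.24, adjusted p = 0.02).

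The other 8 of the 12 largest rises lay between 1.17 and 1.69. DOCK9, which activates the small GTPase CDC42, rose from 5.46 ± 0.23 to 7.15 ± 0.36 (SD, n = 3). FRMD4A, a scaffold protein of cell polarity, rose from 7.08 ± 0.46 to 8.64 ± 0.33. The adaptor gene SASH1 rose from 6.32 ± 0.23 to 7.73 ± 0.42. TRIM71, an RNA-binding ubiquitin ligase of stem cells, rose from 6.83 ± 0.18 to 8.15 ± 0.09. ATP9A, a lipid-transporting ATPase, rose from 5.44 ± 0.42 to 6.75 ± 0.24. TXNDC2, a thioredoxin-domain protein of sperm, rose from 6.16 ± 0.40 to 7.43 ± 0.09. TRIM58, a ubiquitin ligase of erythroid cells, rose from 4.32 ± 0.43 to 5.56 ± 0.23. FAM200A rose from 4.92 ± 0.29 to 6.10 ± 0.42, and TMEM266, at 1.12, was the next gene outside the 12. The calls of the rises were less stable than those of the falls. They also began nearer the threshold, at limma adjusted p up to 0.0497, against at most 0.00227 for the falls. Of the 12 rises, 8 lost their call when 1 DMSO array was left out, and each of the 6 arrays ended at least 1 call. Their differences were then 0.99 to 1.75 and their adjusted p 0.0502 to 0.224, the highest being FAM200A without vector array 2. HS3ST2, DOCK9, GPR18 and ATP9A kept theirs. With the block and without both DMSO arrays of a number, the rises that lost their call were TXNDC2, TRIM58 and FAM200A.

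**Figure D2:**
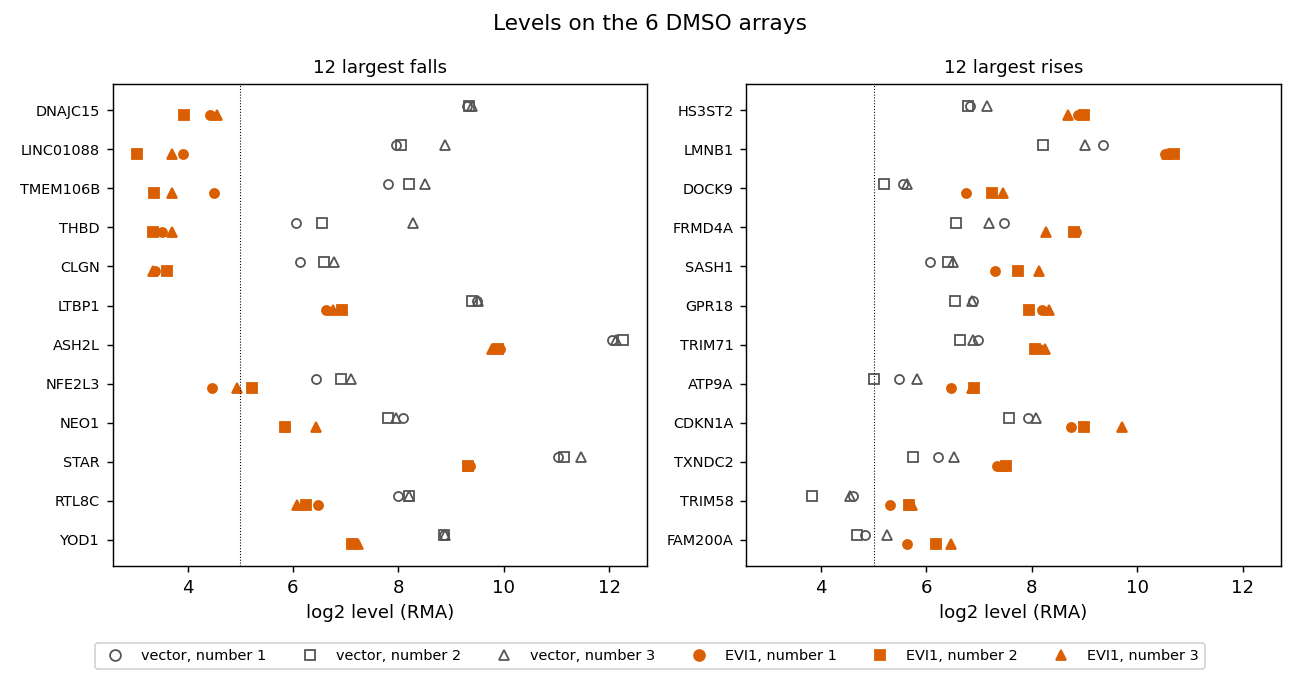
Log2 level on each of the 6 DMSO arrays for the 12 largest falls and the 12 largest rises, with open grey symbols for vector and filled orange symbols for EVI1 cells; symbol shape gives the replicate number and the dotted line is the signal limit of 5. The groups do not overlap for any gene, and 5 genes cross the limit downwards on all 3 arrays.

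Many transcripts are read by more than 1 probe set. For 9 of the 24 genes there was a single probe set. Of the 31 other probe sets of the remaining genes, 13 reached a mean of 5 in either group, 12 of those had the same sign as the probe set used and 8 were called in the same direction. The exception in sign was a DOCK9 probe set at -0.06.

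Promoter sequences are shown for SASH1 and TXNDC2 because they hold GATAAG, a word of the GATA type that EVI1 zinc fingers can bind in vitro. The sequences are from RefSeq on GRCh38.p14, on the plus strand, and cover the 250 bases before the annotated start, at chr6:148272078-148272327 and chr18:9885723-9885972. The promoter of DNAJC15, at chr13:43023336-43023585 on the plus strand, is set beside them as that of the largest fall. Capitals mark GATAAG or its complement CTTATC.
SASH1: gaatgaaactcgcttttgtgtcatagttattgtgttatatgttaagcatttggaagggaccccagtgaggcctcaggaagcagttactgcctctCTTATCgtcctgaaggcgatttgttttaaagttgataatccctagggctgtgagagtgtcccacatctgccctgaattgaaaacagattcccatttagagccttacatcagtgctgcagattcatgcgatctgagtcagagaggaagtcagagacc
TXNDC2: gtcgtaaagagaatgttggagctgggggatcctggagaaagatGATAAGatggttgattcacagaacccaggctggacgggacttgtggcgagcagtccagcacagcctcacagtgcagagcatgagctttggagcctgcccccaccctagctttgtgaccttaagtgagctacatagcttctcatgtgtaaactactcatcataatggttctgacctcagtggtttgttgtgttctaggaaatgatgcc
DNAJC15: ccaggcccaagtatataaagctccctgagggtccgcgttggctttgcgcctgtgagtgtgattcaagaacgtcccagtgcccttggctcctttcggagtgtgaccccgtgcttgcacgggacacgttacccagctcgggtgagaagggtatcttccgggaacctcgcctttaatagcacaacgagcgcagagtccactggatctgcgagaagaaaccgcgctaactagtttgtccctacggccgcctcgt
The word begins 156 bases before the start in SASH1 and 207 bases before it in TXNDC2, and neither it nor the words below were found in DNAJC15. LMNB1 holds it too, from base 10 after the start.

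In the windows from 250 bases before to 50 after the start, searched on both strands, GATAAG was present in 463 of 11234 promoters of tested genes (4.12%). It was present in 6 of 67 promoters of genes called higher (8.96%), those of AP1S1, LMNB1, MPP1, SASH1, TXNDC2 and VENTX, and in 1 of 69 of genes called lower (1.45%), that of NANP. These counts are small, and no test was made. Among genes called higher with the block the share was 4.99%, nearer to that of all promoters. Without the block, leaving out 1 DMSO array gave shares from 4.76% (without EVI1 array 3) to 18.75% (without vector array 2). GAAGATGAG, a word bound by the C-terminal fingers, was in 31 of the 11234 (0.276%) and in 0 of the promoters of called genes. GACAAGATA, a longer word for the N-terminal fingers, was in 4 of the 11234 and in 0 of those of called genes.

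Several genes were fixed for naming whatever their values. SPI1, which encodes PU.1, a partner protein of EVI1, was 6.46 ± 0.41 in vector and 6.56 ± 0.29 in EVI1 cells (SD, n = 3). CEBPA, a factor of granulocytic commitment, was 11.7 ± 0.06 and 11.6 ± 0.17. CEBPE, a factor of later granulocyte stages, was 7.34 ± 0.12 and 7.05 ± 0.44. GATA2, a stem cell factor that EVI1 activates in mouse blood stem cells, was 6.61 ± 0.11 and 6.56 ± 0.09. For MYC, RARB and ITGAM the differences were 0.08, -0.06 and 0.21. None of these 7 passed the test, with or without the block. RUNX1 was not analysed here.

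The gene lists used here hold 877 distinct genes, of which 683 were tested. Of those 683, 15 were called (2.2%), against 1.21% of all tested genes, and 96 with the replicate block (14.1%), against 7.19%. The lists were chosen with earlier results of these data known, so their higher shares are not a finding about the lists. In 24 of the 37 lists 0 genes were called. Over all tested genes the median difference was 0.02, and 54.0% of the differences were above 0.

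Genes linked to EVI1 in earlier work gave 0 calls among 19 tested, and the median was 0.03. With the block, 1 was higher and 3 lower. The higher one was CD52, a small surface glycoprotein of lymphocytes and monocytes, which read 3.93, 4.61 and 5.54 in vector and 5.35, 6.68 and 9.97 in EVI1 cells. The array numbered 3 was the highest of each group and the groups overlapped, with a difference of 2.64 (limma adjusted p = 0.51, and 0.00658 with the block). MS4A3, a membrane protein of granulocyte precursors, read 11.26, 11.33 and 10.94 against 10.02, 10.04 and 8.22. All EVI1 arrays were below all vector arrays, and the difference was -1.75 (adjusted p = 0.128, and 0.00345 with the block). SETBP1 and BCL2L1 were the other genes called lower with the block, at -0.88 and -0.36. The list of EVI1 partners and chromatin repressors gave 0 calls among 24, with a median of 0.01. CTBP1, the co-repressor partner, was called lower with the block alone, at -0.27 (adjusted p = 0.0498). It lies in a run of 27 neighbouring genes on chromosome 4, found with the block alone, whose median was also -0.27.

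In the TGF-beta and SMAD list, 1 of 27 tested genes was called, LTBP1, and the median was 0.09. With the block 3 more were called higher. INHBA, the activin A subunit, was 7.53 ± 1.01 in vector and 9.16 ± 0.49 in EVI1 cells (SD, n = 3), a difference of 1.63 (adjusted p = 0.215, and 0.0173 with the block). The inhibitory SMAD7 and the ubiquitin ligase SMURF1 differed by 0.44 and 0.71. SMURF1 lies in a run of neighbouring genes on chromosome 7 described below, whose median was 0.66. The ligands TGFB1, TGFB2 and TGFB3 and the receptors TGFBR1, TGFBR2 and TGFBR3 differed by -0.14 to 0.19 and passed neither test. Of the transducers, SMAD2 differed by 0.06, SMAD3 by 0.31 and SMAD4 by -0.07, also without passing either.

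Among haematopoietic transcription factors 0 of 39 were called, with a median of 0.06, and LMO2, EGR1 and ID2 were called higher with the block. In the retinoid list 1 of 19 was called. That was ALDH1A1, which makes retinoic acid from retinaldehyde, and it fell from 5.95 ± 0.08 to 5.26 ± 0.18 (SD, n = 3; limma adjusted p = 0.0283, and 0.0732 to 0.135 without any of the 5 DMSO arrays that ended the call, which were all but EVI1 array 2). RXRA, a retinoid X receptor, was called higher with the block alone, at 0.40. Among monocyte and macrophage surface genes THBD was the single call of 21. With the block CD300A, FCGR2B and PLAUR were called higher and FCGR2A and CCR2 lower. CD300A, an inhibitory receptor, read 5.50, 6.22 and 6.47 in vector and 7.42, 7.59 and 9.53 in EVI1 cells, with no overlap (difference 2.12, adjusted p = 0.115, and 0.0018 with the block). CCR2, the receptor of monocyte chemoattractants, read 5.13, 5.84 and 6.40 against 4.88, 4.26 and 4.67 (difference -1.19, adjusted p = 0.0527, and 0.0185 with the block). The G-protein-coupled receptor list gave 0 calls among 33 and 5 lower with the block, which were C3AR1, CCR2, P2RY2, P2RY6 and GPR65.

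Granulocytic maturation genes gave 0 calls among 16 in either fit, as did the 9 tested genes of the phagocyte NADPH oxidase. Primary granule genes had the lowest median of all lists, -0.21, with 0 of 13 called and CTSG and MS4A3 lower with the block. In the coagulation and fibrinolysis list 2 of 15 were called, both lower, THBD and SERPINE2. The latter, a serpin that inhibits thrombin and plasminogen activators, fell by 1.06 (SE 0.18, adjusted p = 0.0134). Without vector array 2 or 3 or EVI1 array 1 or 3, its adjusted p was 0.0521 to 0.0799. With the block F13A1 and S100A10 were called lower as well, and F3 and PLAUR higher. Among integrins and adhesion genes CD9, a tetraspanin, was the single call of 34. It fell from 6.03 ± 0.38 to 4.99 ± 0.27 (SD, n = 3; adjusted p = 0.0419, and 0.0521 to 0.175 without any 1 DMSO array other than vector array 1). EMP1, an epithelial membrane protein, and ICAM2 were called higher with the block alone, at 2.49 and 0.53, and ICAM3 and TSPAN7 lower, at -0.47 and -0.80.

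MHC class II genes, which present peptides to helper T cells, had the highest median of all lists. The 12 tested genes had a median difference of 0.72, and 11 were above 0. None passed the test without the block, and 7 were called higher with it (58.3%, against 4.2% of all genes called higher with it). HLA-DRA, the alpha chain of HLA-DR, read 8.59, 7.76 and 9.49 in vector cells and 10.26, 10.14 and 11.06 in EVI1 cells. The groups did not overlap, and the same-numbered differences were 1.67, 2.38 and 1.57 (mean 1.87, limma adjusted p = 0.0545, and 0.000838 with the block). CD74, the invariant chain, read 6.51, 5.87 and 7.03 against 7.95, 7.62 and 8.92 (difference 1.69, adjusted p = 0.0797, and 0.000165 with the block). Within each number the EVI1 array was higher by 1.44 or more. The other 5 genes called with the block were HLA-DPA1 at 1.53, HLA-DMA at 1.10, HLA-DRB1 at 1.06, HLA-DPB1 at 0.92 and HLA-DMB at 0.53. CIITA, the master activator of this gene family, differed by 0.01 and RFX5, a factor of their promoters, by 0.03. B cell markers, which are read beside class II genes because B cells express both, had 6 of 7 tested genes above 0, with a median of 0.19. PAX5, a B cell transcription factor, and CD79B, a part of the B cell receptor, differed by 0.69 and 0.48 (adjusted p = 0.649 and 0.139, and 0.0384 and 0.0409 with the block). Their part in the class II result was not tested. HLA genes have near-identical copies, so single HLA levels are uncertain.

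In the list of MHC class I loading and immunoproteasome genes all 16 tested genes were above 0, with a median of 0.29. TAP1, a subunit of the transporter that moves peptides into the endoplasmic reticulum, was called (0.55, SE 0.11, limma adjusted p = 0.0359). With the block 6 more were, HLA-B, HLA-C, HLA-E, PSMB9, PSME1 and NLRC5. The share called higher was then 43.8%, against 4.2% of all genes. TAP1, PSMB9 and the class II genes HLA-DMA and HLA-DMB are not separate in position. They lie in 1 run of 8 neighbouring genes on chromosome 6, found with the block alone, with a median of 0.43. Interferon-stimulated genes had a median of 0.36, with 33 of 38 above 0. HERC5, a ligase for the ubiquitin-like ISG15, was called (0.44, SE 0.09, adjusted p = 0.0452), and 11 more with the block, among them IFI6 at 1.23, XAF1 at 0.84 and TRIM22 at 0.76. These 12 made up 31.6% of the tested list, against 4.2% of all genes called higher with the block. Of the 12, SAMD9 and SAMD9L lie in a run of neighbouring genes on chromosome 7 described below. ISG15 itself, at 0.43, and MX1, at -0.003, passed neither test. TAP1 and HERC5 lost their calls without any 1 of the 6 DMSO arrays, at adjusted p 0.0853 to 0.144 and 0.0642 to 0.174. With the block and without both DMSO arrays of number 1, 2 or 3, the calls were 7, 5 and 5 for class II, 4, 0 and 2 for class I, and 10, 4 and 6 for interferon-stimulated genes.

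**Figure D3:**
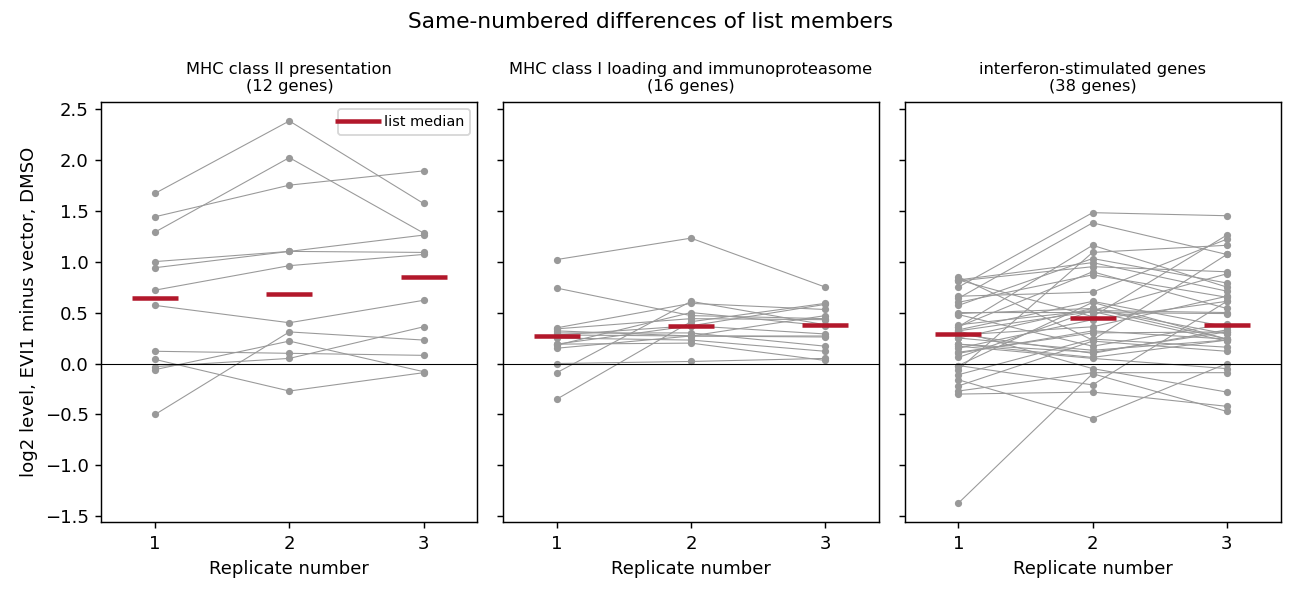
Log2 difference between the EVI1 and vector arrays of the same replicate number under DMSO for each tested gene of 3 lists, with grey lines joining the points of 1 gene and red bars at the list median. The class II medians are 0.65, 0.68 and 0.85 for numbers 1 to 3, the class I medians 0.27, 0.37 and 0.38, and the interferon-stimulated medians 0.29, 0.45 and 0.38, against 0.01, 0.04 and 0.01 over all genes.

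In the cell cycle list 1 of 43 was called. GINS1, a subunit of the replicative helicase complex, fell from 10.9 ± 0.09 to 9.91 ± 0.02 (SD, n = 3). The list median was -0.09, with 30 below 0. CDK inhibitors and G1 regulators gave 2 calls of 21, both higher. CDKN1A is given above, and CDK6, a kinase that drives cells out of G1, rose by 0.57 (SE 0.10, adjusted p = 0.0123). Among regulators of apoptosis 2 of 30 were called. CASP1, the inflammatory caspase, fell by 0.85 (SE 0.09, limma adjusted p = 0.000662). TNFRSF10B, a death receptor for TRAIL, rose by 0.57 (SE 0.12, limma adjusted p = 0.0374). The other probe sets of TNFRSF10B, at lower levels, differed by 0.14, 0.11 and -0.03 and were not called. With the block BCL2A1, BAX, BIK and PMAIP1 were called higher, and BCL2L1 and TNFSF10 lower, so inhibitors and promoters of cell death were found on both sides. MXD1, a repressor that competes with MYC for its partner, rose by 0.64 and was the single call of 22 in the list of ribosome biogenesis and MYC targets. Its other probe sets differed by 0.44 and -0.05 and were called in neither fit. DNAJB9, a chaperone of the endoplasmic reticulum, rose by 0.87 and was the single call of 25 in the list of unfolded protein and amino acid stress. Of its other probe sets, that at 0.32 was called in neither fit and that at 0.96 with the block alone. GINS1, CDK6 and DNAJB9 lie in the chromosome runs described next. GINS1 and CASP1 kept their calls with any 1 DMSO array left out. TNFRSF10B lost its call without any 1 of them (adjusted p 0.0597 to 0.144), as did MXD1 (0.0666 to 0.107). CDK6 lost it without vector or EVI1 array 2 (0.0637 and 0.0647), and DNAJB9 without vector array 1 or 2 or EVI1 array 2 or 3 (0.0724 to 0.0939). In the nuclear envelope and lamina list LMNB1 was the single call of 14.

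Lysosomal genes gave 0 calls among 24, with a median of 0.17. With the block HEXA, NPC1, NPC2 and GRN were called higher, at 0.54 to 0.72, and the protease gene CTSC lower, at -0.31. HEXA degrades gangliosides, and NPC1 and NPC2 export cholesterol from the lysosome. Genes of cholesterol and fatty acid synthesis gave 0 calls among 17, with 14 below 0 and a median of -0.13. Immediate early genes gave 0 calls among 28, with 22 above 0 and a median of 0.14. EGR1, a zinc finger factor induced by growth signals, and the phosphatase gene DUSP6 were called higher there with the block.

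Called genes were not spread evenly over the chromosomes. Chromosome 7 held 27 of the 75 genes called higher, 4.22% of its 640 tested genes. Chromosome 8 held 20 of those called lower (4.28% of 467), and chromosome 20 held 20 (4.65% of 430). The 3 chromosomes carried 10.9% of the tested genes and 80 of the 171 calls (46.8%). On the other chromosomes 91 of 12515 were called (0.727%). Of the 171 called genes, 31 (18.1%) had an adjacent tested gene called in the same direction.

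By a rule of at least 5 consecutive tested genes with the same sign, 4 or more of them called, there were 8 runs, which held 127 genes and 44 calls. With the block there were 29 runs. The 8 runs were the count of the fit without the block, and leaving out 1 DMSO array gave 1 to 4. The shared sign within a run and its first 4 calls are set by that rule. On chromosome 8 a single run of 26 genes from LOC101929550 to ZMAT4 had a median of -0.68, 1.61-fold lower, with all 26 differences below 0 by the rule. Its 11 called genes were RAB11FIP1, ASH2L, STAR, LSM1, BAG4, DDHD2, PLPP5, NSD3, TACC1, PLEKHA2 and TM2D2. ASH2L and STAR, next to each other in that order, were thus also among the 12 largest falls, and the other 9 calls lay between -1.15 and -0.77. FGFR1, a receptor gene of the same run, was not called. The rest of chromosome 8 had a median of 0.05.

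On chromosome 7, 4 runs lay between ANKIB1 and TFEC. They began with ANKIB1 to VPS50, which holds CDK6, SAMD9 and SAMD9L, and went on with ASNS to ZSCAN25, TRIM56 to COL26A1, and KMT2E-AS1 to TFEC. The whole stretch, chosen after its values were seen, held 147 tested genes. Of these, 131 were above 0, 26 were called higher and 0 lower, and 87 were called higher with the block. Its median was 0.50, 1.41-fold, against -0.04 for the rest of the chromosome. The medians of the same-numbered differences were 0.43, 0.61 and 0.47. Among the 5 genes just before the stretch, CLDN12, CDK14 and MTERF1 fell by 1.36, 0.75 and 1.51, while FZD1 at 0.03 and AKAP9 at -0.24 were not called. TMEM106B and NFE2L3, both among the largest falls, also lie on chromosome 7 and outside it.

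On chromosome 20 the runs were SNRPB2 to ZNF133 and CST7 to DEFB124. The stretch from SNRPB2 to DEFB124, likewise chosen after its values were seen, held 52 genes, 44 below 0, with a median of -0.46 and 15 called lower. RALGAPA2, which encodes a subunit of a GTPase-activating complex, lay inside it and rose by 1.06. THBD lies in the same stretch of the gene order and fell by far more than its neighbours. On chromosome 5 the run MARCHF3 to RAPGEF6 held 10 genes, all below 0 by the rule, with a median of -0.55. Those called lower were 5, SLC12A2, ISOC1, HINT1, LYRM7 and RAPGEF6. In each of the 4 stretches the median under ATRA was on the same side, at 0.48 on chromosome 7, -0.61 on 8, -0.39 on 20 and -0.66 on 5.

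**Figure D4:**
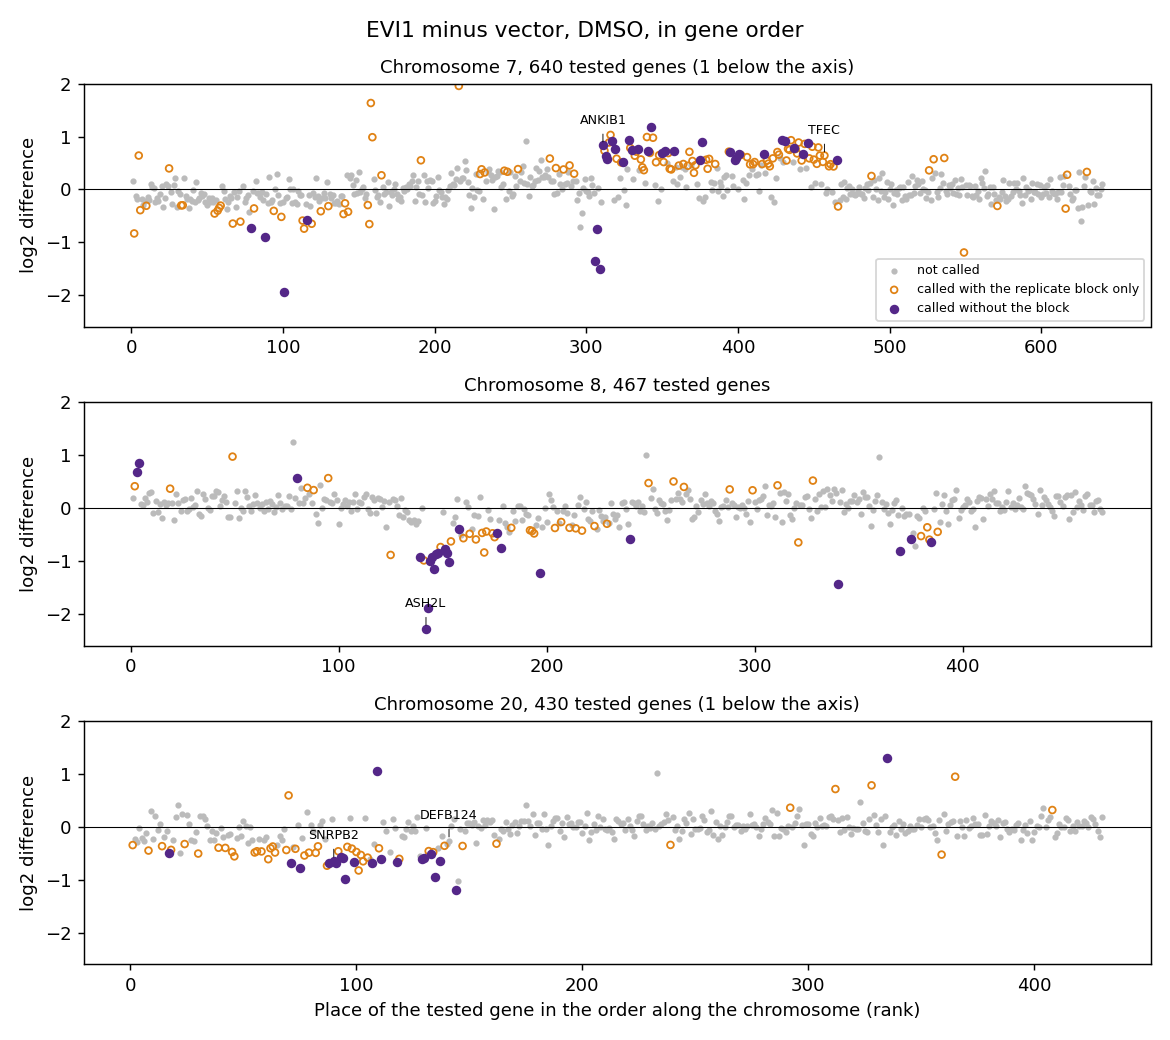
Log2 difference between EVI1 and vector cells under DMSO for the tested genes of chromosomes 7, 8 and 20, placed by their rank in the order along the chromosome; filled purple points are called without and open orange circles only with the replicate block. Long stretches shift together, upwards between ANKIB1 and TFEC on chromosome 7 and downwards around ASH2L on chromosome 8 and before DEFB124 on chromosome 20; TMEM106B and THBD lie below the axis.

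The same contrast under ATRA takes its group means from the other 6 arrays, but shares with the DMSO contrast the spread estimated over all 12, so the calls of both are not independent. It called 790 genes (5.61%), 462 higher (3.28%) and 328 lower (2.33%). All 171 genes had the same sign under ATRA, against 68.9% of all tested genes. Of the 171, 157 were also called under ATRA, 66 higher and 91 lower. They make up 91.8% of the DMSO calls and 19.9% of the ATRA calls. Both contrasts read the same 2 cell lines, in experiments with the same numbers. Over all genes the effects correlated with r = 0.72 and rho = 0.58, which is a description across genes that are not independent.

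All 24 of the largest rises and falls were called in both. DNAJC15 differed by -4.90 under ATRA, LINC01088 by -4.92 and TMEM106B by -4.74, each close to its DMSO value. THBD differed by -4.87 under ATRA and -3.44 under DMSO. HS3ST2 differed by 0.69 under ATRA and 1.93 under DMSO. CADM1, an adhesion molecule named after its values were seen, fell by 1.06 under DMSO and by 2.65 under ATRA. The difference between the effects was tested as an interaction and 0 genes were called in limma, with a smallest adjusted p of 0.998. An unadjusted p under 0.05 was found for 362 genes, where 704 are expected if no gene differs. With the block 0 were called too, with 1846 at an unadjusted p under 0.05 and a smallest adjusted p of 0.346. The counts of these fits lie on either side of 704, and 0 calls do not show that the effects were equal. HS3ST2 had an unadjusted interaction p of 0.000275 and an adjusted p of 0.998. The median size of the difference between EVI1 and vector cells over the 171 genes was 0.76 under DMSO and 0.77 under ATRA.

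The 14 genes called under DMSO and not under ATRA were IFT57, POLR3F, CYP4V2, TSPAN4, GOLGA7, RMND1, HERC5, ARHGEF10L, ZDHHC9, METRN, FIS1, PPP1R14C, BLNK and ATXN7L1. METRN, a secreted factor of glial cells, had the smallest ATRA difference of the 14, 0.08 against 0.63 under DMSO. BLNK, an adaptor of the B-cell receptor, differed by 0.81 under DMSO and 0.48 under ATRA. Neither interaction passed the adjusted test.

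**Figure D5:**
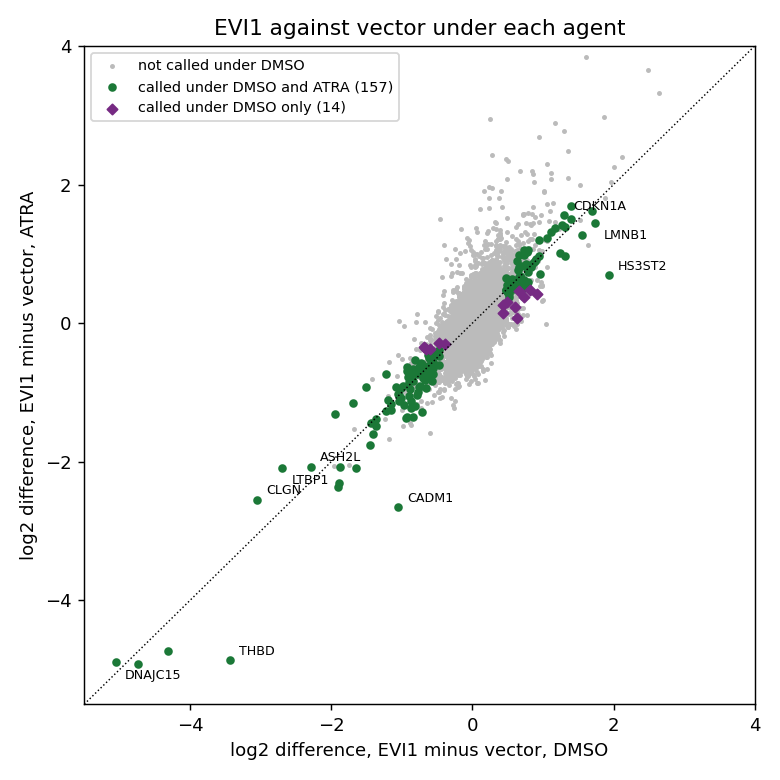
Difference between EVI1 and vector cells under ATRA against that under DMSO, both in log2, 1 point a gene, with the dotted line of equality. Green points are the 157 genes called under both agents, purple diamonds the 14 called under DMSO alone, and no called gene changes sign.

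ATRA itself, in vector cells, moved some of the same genes, and this contrast shares the vector DMSO arrays with the EVI1 contrast, so its values are set side by side without a comparison. ATRA raised THBD by 3.16 (limma adjusted p = 0.00388), CDKN1A by 1.23 (adjusted p = 0.0192) and GPR18 by 1.12 (adjusted p = 0.00388) in vector cells. It lowered TRIM71 by 1.72 (adjusted p = 0.00272), NFE2L3 by 1.24 (adjusted p = 0.0141) and HS3ST2 by 1.23 (adjusted p = 0.00452). Between EVI1 and vector cells under DMSO, these 6 genes differed by -3.44, 1.30, 1.39, 1.32, -1.94 and 1.93, in the same order.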

How the data were processed

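RNA of 12 U937 samples was hybridised to Affymetrix 3′ arrays from 250 ng of total RNA, per the labels' protocols. The deposited values are log2 levels made with RMA; the submitters' processing notes name Affymetrix Expression Console 1.3. Settings and array quality filters are not given in the sources used here. The values have 2 decimals, and background correction and normalization across arrays were part of RMA, which compresses low levels.

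The array annotation named 42898 of 54675 probe sets. The 1801 with several symbols were left out, and 41097 with 1 symbol gave 19775 genes. Where a gene had several probe sets, the one with the highest average of the 12 arrays stood for it, and 14080 genes with a log2 level of at least 5 on at least 3 arrays were tested. RefSeq (GRCh38.p14) gave gene order and promoters. Limma 3.58.1 in R 4.3.3 (statmod 1.5.0 for the robust alternative) fitted 4 group means to all 12 arrays (8 residual degrees of freedom), with p-values adjusted by Benjamini-Hochberg over all genes. Called means an adjusted p below 0.05. The script was tested, without the block, on simulated data whose noise was independent between arrays.

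Same-numbered arrays deviated together from their group means in all 18 pairs (r = 0.408 to 0.704, over 0.1 in each), and this correlation in the data is the basis of the pairing. The block of replicate number was therefore fitted too. Alternatives were the 6 DMSO arrays alone, other signal limits, probe set rules, scalings and variance models, and arrays left out.

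Genes named were the 12 largest rises and 12 largest falls among called genes, MECOM, called list members, genes of chromosome runs and a few fixed genes whatever their values, some of which are not reported here. Genes called with the block alone and those set beside them were named after their values were seen. The comparison, the gene lists and these rules were chosen with earlier results of these data known. Precision is limited by the small number of arrays.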

Additional observations from a re-analysis of the deposited data

How the results depend on the processing

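None of the 24 largest changes or of the called list members changed sign in the settings tried. Of the fixed genes that were not called, SPI1, CEBPA, GATA2, RARB and ITGAM changed sign in some of them. The 12 largest falls kept their calls throughout, while HS3ST2 and GPR18 were the 2 of the 12 largest rises that did so. Apart from arrays left out, the 24 genes gave 258 values under other settings, of which 252 kept the call. The 6 lost calls were CDKN1A, TRIM58 and FAM200A on the 6 DMSO arrays alone, FAM200A without a signal limit and with the probe set of largest spread, and TXNDC2 with the mean of probe sets. The other named genes, called or not, kept their side of the threshold in 164 of 191 such values. HERC5 and TAP1 lost their calls on the 6 DMSO arrays, with the probe set of largest spread, with median centring and with quantile normalization. HERC5 also lost its call without a signal limit and with the trend and robust fit. MHC class II genes called were 1 with median centring, quantile normalization, the trend and robust fit or the signal limit of 6, and 2 with the mean of probe sets.

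With the replicate block, calls under DMSO were 1013 (592 higher, 421 lower) and calls under ATRA 3559. List genes called were then 96 and runs 29. On the 6 DMSO arrays alone there were 92 calls (35 higher, 57 lower), 9 list genes and 1 run. Those arrays with the replicate block gave 734 calls (429 higher, 305 lower), 89 list genes and 21 runs. The block ended the call of none of the 171 genes. Runs fell to 2 without a signal limit and to 3 with the probe set of largest spread. Median centring gave 60 higher and 117 lower calls in place of 75 and 96, and the signal limit of 6 gave 184 calls.

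With 1 DMSO array left out, calls were 77 to 130 (18 to 59 higher, 52 to 73 lower), list genes called 5 to 11, runs 1 to 4 and calls under ATRA 602 to 783. The share of promoters of genes called higher with GATAAG was 4.76 to 18.75%. With both DMSO arrays of a number left out, calls were 26 to 52 (3 to 15 higher, 23 to 37 lower), list genes 3 to 6, runs 0 to 1, calls under ATRA 459 to 607 and the promoter share 0 to 15.38%. The lowest counts came without both arrays of number 2, which leaves 2 arrays a group.

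The following were chosen after seeing the data. With the replicate block and without both DMSO arrays of number 1, 2 and 3, calls were 535, 295 and 372 (higher 325, 111 and 207, lower 210, 184 and 165). Calls under ATRA were then 3354, 2891 and 3305, and list genes called 58, 33 and 41. Runs were 12, 9 and 12, and the promoter share without number 3 was 3.3%. With the genes of the 8 runs set aside, 127 calls remained outside them and the run count was 0 by construction. The ATRA contrast and the interaction could not be fitted on the 6 DMSO arrays alone. Interaction calls and called MECOM probe sets were 0 in every setting run. The causes of these shifts were not tested.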
